A study of Mus musculus with 6 samples.

Results

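The regions described, chosen by the peak calls of the Flag-Rxra and H3K27ac lists, are 6916 Flag-Rxra peaks of mouse embryonic fibroblasts that lay away from gene ends and overlapped no called region of H3K27ac, the acetylation of histone H3 at lysine 27. They were chosen as replicate 1 peaks on chromosomes 1 to 19, X and Y that overlapped a replicate 2 peak by 1 bp or more. Their summits, the points of highest signal, lay more than 1 kb from both ends of every RefSeq protein-coding gene, and the peaks overlapped no region of either deposited H3K27ac list. Of 28243 replicate 1 peaks, 17623 were shared with replicate 2, 11431 of these were distal, and 6916 of the distal ones were without called H3K27ac. The 6916 are called unmarked distal peaks here, and the 4515 distal shared peaks that overlapped an H3K27ac region are called marked distal peaks. Of the marked ones, 1167 overlapped a CD region only, 2003 a DMSO region only and 1345 both. "Unmarked" states an absence from these peak lists and not a measured absence of acetylation.

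The libraries came from OG2X129 mouse embryonic fibroblasts from a study of chemical reprogramming, the conversion of somatic cells to pluripotency with small molecules. CUT&Tag, in which an antibody directs a transposase to its target so that released fragments mark that place, was done with an H3K27ac antibody after CD (2 samples) and after DMSO, the solvent (2 samples), and with a Flag antibody in cells overexpressing Flag-tagged Rxra (2 samples). The series title names CD3254, a synthetic agonist of RXR. Each H3K27ac condition had 1 list for both of its samples, so the spread between its replicates is not known, whereas the Flag-Rxra replicates were called separately. The labels do not give the day of sampling, whether the Flag-Rxra cells also received CD or DMSO, or whether replicates were separate cultures. The Flag antibody reads the overexpressed protein and not endogenous RXRα, and the sources used here name neither the vector nor its promoter. The Flag-Rxra lists had median folds of 9.03 in replicate 1 and 10.8 in replicate 2, and replicate 2 held more peaks (45999). Called H3K27ac at gene ends did not set the labelled cell type apart. A region of either list lay within 1 kb of an end of 5 of 10 fibroblast and mesenchymal markers, with none at Col1a1, Col1a2, Thy1, Postn and Prrx1, and at 3 of 12 neural, 5 of 10 macrophage, 9 of 10 endothelial, 2 of 9 muscle and 6 of 12 keratinocyte and epithelial markers. The CD list held 104437 H3K27ac regions over 37.3 Mb and the DMSO list 75482 regions over 31.1 Mb.

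RXRα is a nuclear receptor that binds DNA as a heterodimer with partners such as the retinoic acid receptors, the LXR, PPAR and thyroid hormone receptors and the vitamin D receptor. These dimers recognise direct repeats of the hexamer AGGTCA, and the spacing of the repeat helps decide which partner binds. H3K27ac is found at active promoters and enhancers, and receptors can also occupy DNA elements that lack it.

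The RefSeq tables used here hold sequence around transcription starts, so the unmarked distal peaks whose letters can be shown were those at internal or long non-coding RNA starts. A start window ran from 250 bp before to 50 bp after a start. The 6 windows below are those of the best-ranked unmarked distal peaks, by fold enrichment in both replicates, whose summit lay in a start window. They are shown because they hold the summits of the highest peaks for which sequence is at hand, though parts of a window can lie outside its peak. Each is 300 bases of RefSeq GRCm38.p6, the assembly called mm10, 5′ to 3′ on the strand of its gene. Capitals mark AGGTCA, the AP-1 motif TGANTCA or the TEAD motif ACATTCC, on either strand.
Gm33560 start window, chr7:141122981-141123280, plus strand: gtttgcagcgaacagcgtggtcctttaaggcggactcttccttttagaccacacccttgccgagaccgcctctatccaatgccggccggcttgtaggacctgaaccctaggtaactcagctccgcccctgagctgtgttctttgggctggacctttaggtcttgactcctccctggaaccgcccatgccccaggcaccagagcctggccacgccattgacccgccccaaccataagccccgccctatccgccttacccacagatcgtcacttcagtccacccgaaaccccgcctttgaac
Gm36102 start window, chr1:92751894-92752193, plus strand: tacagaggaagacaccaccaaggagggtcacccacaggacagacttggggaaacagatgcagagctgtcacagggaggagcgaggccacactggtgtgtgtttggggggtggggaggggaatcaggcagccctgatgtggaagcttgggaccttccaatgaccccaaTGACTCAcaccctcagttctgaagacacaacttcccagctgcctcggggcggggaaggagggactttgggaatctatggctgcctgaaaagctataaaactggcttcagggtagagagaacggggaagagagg
Taf1 start window, chrX:101532485-101532784, plus strand: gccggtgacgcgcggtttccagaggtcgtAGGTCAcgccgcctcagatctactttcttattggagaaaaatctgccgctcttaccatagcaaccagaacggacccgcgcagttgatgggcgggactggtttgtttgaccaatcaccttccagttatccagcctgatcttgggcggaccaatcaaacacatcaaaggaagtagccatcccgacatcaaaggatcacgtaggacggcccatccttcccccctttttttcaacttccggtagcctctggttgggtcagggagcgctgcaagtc
Gm40164 start window, chr3:145632924-145633223, minus strand: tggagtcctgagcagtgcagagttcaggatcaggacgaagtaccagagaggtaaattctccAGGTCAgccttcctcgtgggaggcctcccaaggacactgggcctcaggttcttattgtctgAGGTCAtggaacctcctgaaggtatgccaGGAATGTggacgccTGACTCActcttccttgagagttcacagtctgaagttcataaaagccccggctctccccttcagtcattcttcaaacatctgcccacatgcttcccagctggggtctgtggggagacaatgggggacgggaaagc
4930444M15Rik start window, chr14:76520806-76521105, minus strand: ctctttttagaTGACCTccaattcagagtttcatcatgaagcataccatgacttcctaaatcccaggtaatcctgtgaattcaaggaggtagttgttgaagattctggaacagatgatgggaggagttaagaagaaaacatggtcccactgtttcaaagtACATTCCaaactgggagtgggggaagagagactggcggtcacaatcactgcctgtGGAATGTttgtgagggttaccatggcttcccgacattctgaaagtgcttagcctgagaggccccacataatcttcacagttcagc
Rcan1 start window, chr16:92400029-92400328, minus strand: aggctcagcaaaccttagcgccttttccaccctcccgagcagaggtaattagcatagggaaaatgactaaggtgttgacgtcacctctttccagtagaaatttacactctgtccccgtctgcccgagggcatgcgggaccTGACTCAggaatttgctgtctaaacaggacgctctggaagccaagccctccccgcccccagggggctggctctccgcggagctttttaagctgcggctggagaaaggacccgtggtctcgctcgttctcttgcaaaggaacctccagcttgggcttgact

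Fold enrichment is the authors' ratio of a peak's signal over the background estimated by their peak caller. At Gm33560, a long non-coding RNA start near Ano9, fold was 19.4 in replicate 1 and 27.7 in replicate 2, and its window held none of the 3 motifs. At Gm36102, a long non-coding RNA start with Gpc1 as its nearest protein-coding gene, fold was 19.5 and 27.4, and the window held 1 AP-1 motif. Taf1 encodes the largest subunit of the general transcription factor TFIID. An internal start of Taf1 had folds of 24.8 and 25.4 and 1 AGGTCA. Gm40164 is a long non-coding RNA start 13943 bp from an end of Ccn1, a matricellular gene known as a target of YAP and TEAD. It had folds of 18.98 and 26.3, and its window held 2 AGGTCA, 1 TEAD and 1 AP-1 motif. The window of 4930444M15Rik, whose nearest protein-coding gene is Serp2, held 2 TEAD motifs and 1 AGGTCA, with folds of 16.2 and 35.0. This AGGTCA lay outside the peak, which ended at chr14:76521011. Rcan1, a calcineurin regulator, had an unmarked distal peak at an internal start with folds of 17.7 and 26.3 and 1 AP-1 motif. All 6 were higher in replicate 2 than in replicate 1, least so at Taf1 and most so at 4930444M15Rik.

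Of the 6916 unmarked distal peaks, 403 (5.83%, 95% exact binomial interval 5.29 to 6.41) overlapped a RefSeq start window, against 486 of 4515 marked distal peaks (10.8%, 9.87 to 11.7). Unmarked distal peaks touched 483 of 32851 start windows, or 1.47% of all. Within these windows AGGTCA was found in 78 of 483 (16.1%), against 84 of 590 windows touched by marked distal peaks (14.2%), and in 16.3% of all windows. The AP-1 motif TGANTCA was found in 9.94% of windows with unmarked peaks, 8.81% of those with marked ones and 7.81% of all. The TEAD motif ACATTCC was found in 4.35%, 1.86% and 3.85% of the same 3 sets. AGGGGGC, a core of the motif of the insulator protein CTCF, was found in 18.4%, 15.1% and 10.6%. The E-box CACGTG was found in 10.1%, 10.5% and 7.15%, and the RUNX motif TGTGGT in 14.3%, 13.9% and 16.8%. A direct repeat of 2 AGGTCA on 1 strand with 1 to 5 bases (any N) between was found in 0 of 483, 0 of 590 and 26 of 32851 windows (0.0791%). All motifs were sought on both strands, a palindromic match counts once per window, and a match describes letters in these windows only. Median GC content was 61.0% in windows with unmarked distal peaks, 61.7% with marked ones and 52.7% in all.

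Unmarked distal peaks had modest folds with a few tall ones among them. In replicate 1 their median fold was 9.66 (95% order-statistic interval 9.54 to 9.77, n = 6916), and it was 13.5 in replicate 2 (13.3 to 13.7). The quartiles were 7.48 and 12.4 in replicate 1 and 10.2 and 17.9 in replicate 2. The lowest and highest folds were 2.45 and 44.2 for replicate 1, and 2.43 and 65.1 for replicate 2. Fold was higher in replicate 2 at 5692 peaks (82.3%). Across the 6916 peaks, fold in both replicates had a Spearman correlation of 0.528, and across the 4515 marked distal peaks 0.642, as a description, since peaks of 1 list share a library. These intervals cover counting error over peaks only, and the lists hold no read counts, so depth is unknown.

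The summits of both replicates lay a median of 56 bp apart at unmarked distal peaks and 54 bp at marked ones. They lay within 100 bp of each other at 71.3% of unmarked and 71.1% of marked distal peaks. The intervals of these shares overlapped, while call strength was lower in the unmarked class. The median −log10 q, the authors' score of confidence, was 25.2 in replicate 1 and 33.3 in replicate 2 at unmarked peaks, against 32.5 and 42.3 at marked ones. A −log10 q of 20 or more in both replicates was reached by 54.5% of unmarked and 68.1% of marked distal peaks. Only 18 unmarked distal peaks in replicate 1 and 20 in replicate 2 had a −log10 q under 6, the Flag-Rxra lists themselves stopping at 5.00.

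**Figure D1:**
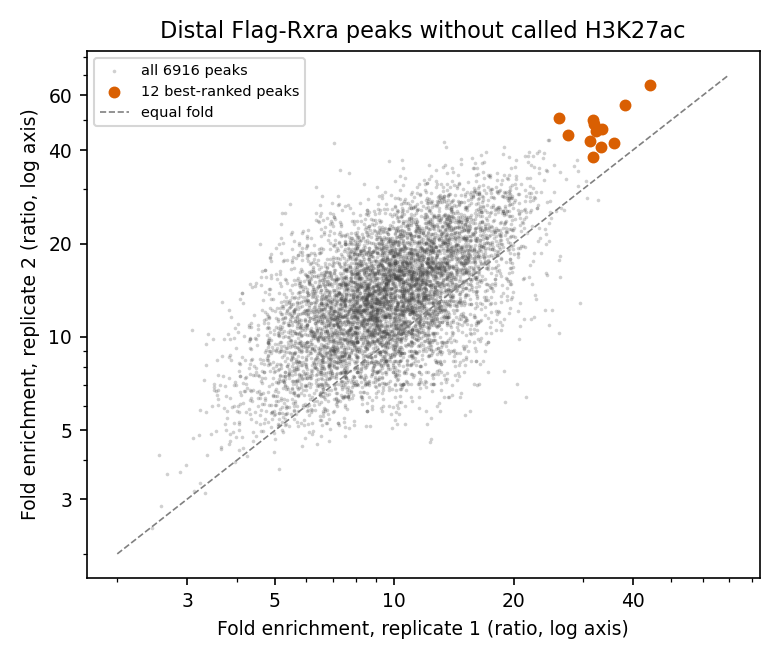
Fold enrichment in replicate 2 (vertical axis, ratio) against replicate 1 (horizontal axis, ratio), both on log scales, for each of the 6916 unmarked distal peaks as points, with the 12 best-ranked peaks marked. The line marks equal fold, and 82.3% of the peaks lie above it.

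The median fold of marked distal peaks was 10.5 for replicate 1 and 14.6 for replicate 2. Within them, fold was 9.98 and 13.9 for peaks with H3K27ac in CD only, 10.5 and 14.7 in DMSO only, and 11.1 and 15.2 in both. In both replicates the unmarked class had the lowest median of the 4 distal classes, and the class marked in both conditions the highest. The quartile ranges of all 4 classes overlapped widely, so that height alone does not separate them. No test was made, because the 4 classes come from the same lists and each H3K27ac condition has 1 list.

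**Figure D2:**
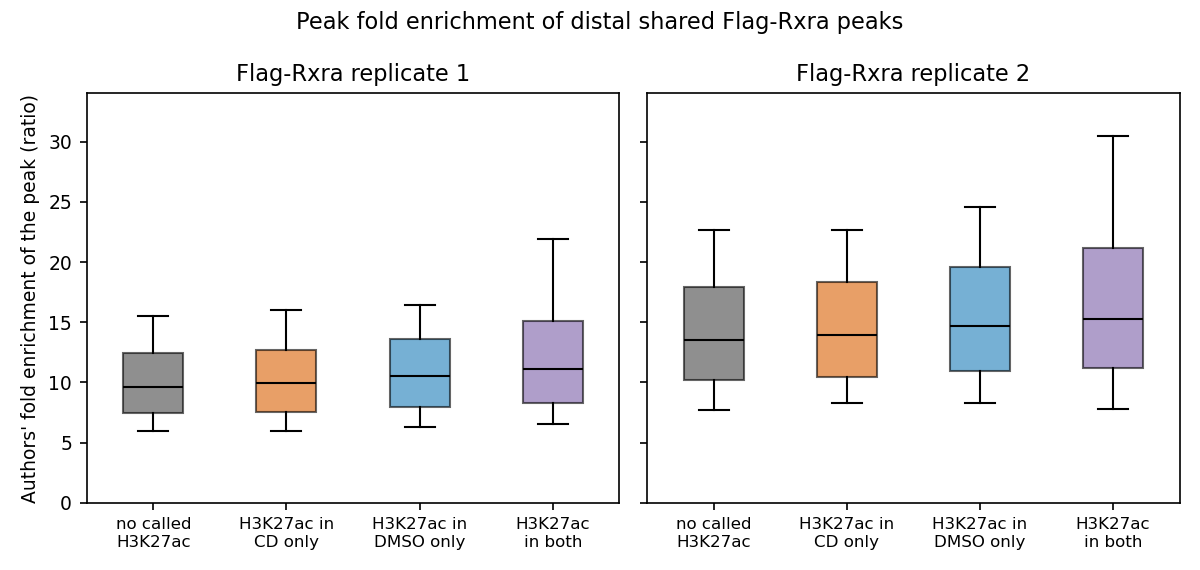
Authors' fold enrichment (vertical axis, ratio) of distal shared Flag-Rxra peaks by H3K27ac class, with a panel for each replicate. Boxes span the quartiles with the median as a line, and whiskers run from the 10th to the 90th percentile. Median fold is 9.66 and 13.5 without called H3K27ac and 11.1 and 15.2 with H3K27ac in both conditions.

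Width is tied to the rule, since a wider peak has more bases that can overlap an H3K27ac region, and the widths are given as a description. Unmarked distal peaks had median widths of 316 bp in replicate 1 and 238 bp in replicate 2, against 393 and 279 bp for marked ones. The unmarked share was 75% of distal peaks up to 200 bp wide, 68.4% from there to 300 bp, 63.3% to 400 bp, 54.4% to 600 bp and 38.3% above 600 bp. Within these 5 width ranges, unmarked peaks still had the lower median fold in replicate 2 in each and in replicate 1 in all but the narrowest, where it was 8.48 against 8.11. In the widest range, median fold was 10.2 and 15.0 for unmarked peaks, against 11.1 and 15.5 for marked ones.

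A smaller share of peaks without than with H3K27ac recurred in the other replicate. A wider peak has more bases that can overlap an H3K27ac region or a peak of the other replicate. Recurrence within width ranges was not computed. Of all 13274 distal replicate 1 peaks without called H3K27ac, 6916 (52.1%, 51.2 to 53.0) overlapped a replicate 2 peak, against 4515 of 6541 with H3K27ac in either list (69.0%, 67.9 to 70.1). Recurrence was 61.5% with H3K27ac in CD only, 70.2% in DMSO only and 75.1% in both. Starting from the longer replicate 2 list, 7517 of 28194 distal peaks without H3K27ac overlapped a replicate 1 peak (26.7%), against 4484 of 8396 with it (53.4%). The unmarked peaks that did not recur had median folds of 7.46 (replicate 1) and 8.997 (replicate 2).

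The 12 best-ranked unmarked distal peaks, by the mean of their fold ranks in both replicates, were narrow and mostly outside genes. The first lay inside Immp2l, a gene for a mitochondrial inner membrane peptidase subunit, at chr12:41515118-41515354, with folds of 44.2 in replicate 1 and 65.1 in replicate 2. The next lay at chr5:60042910-60043085, 1765839 bp from the nearest end of a protein-coding gene, G6pd2, with folds of 38.1 and 55.7. Peaks whose nearest gene was Cenpw (33.5 and 46.7), Ccng2 (31.7 and 50.2), Fam241a (32.0 and 48.4) or Ric8b (32.3 and 46.0) followed. The remaining 6 were nearest to Cntnap5b (35.8 and 42.3), Gm20777 on chromosome Y (33.3 and 40.9), Tmcc3 (31.1 and 42.8), Plxnc1 (27.4 and 44.8), Rgmb (26.0 and 50.6) and Mkx (31.7 and 37.9). Only Immp2l and Plxnc1, a semaphorin receptor gene, held their peak inside the gene, while 53.1% of all 6916 lay inside one. Of the 12, 11 were under 260 bp wide in replicate 1, where the lower quartile of all 6916 was 235 bp and the median 316 bp. Summits lay within 5 bp of each other in both replicates at 9 of the 12, which held for 728 of all 6916 (10.5%). No H3K27ac base of either list lay within 10 kb of 6 of the 12, which held for 7.22% of all 6916. The others had a region nearer than that, the closest being Rgmb with a CD region 24 bp and a DMSO region 522 bp away. The nearest region lay 1899 bp away at G6pd2 (DMSO), 3559 bp at Ric8b (CD) and 5407 bp at Tmcc3 (DMSO). It lay 6238 bp away at Immp2l (CD) and 8340 bp at Ccng2 (CD).

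Just over the 1 kb limit on gene ends lay a peak at D5Ertd579e (1007 bp, folds of 8.37 and 10.4), at Bahd1 (1008 bp, 6.18 and 7.85) and at Slc25a39 (1009 bp, 7.67 and 8.76). Just under it, and so left out, lay shared peaks without H3K27ac at Cdk2ap2 (1000 bp, 8.62 and 11.1), Fcho2 (998 bp, 9.62 and 15.2) and Tk1 (996 bp, 5.02 and 7.65). On the H3K27ac side of the rule, the peaks near Ntn4 and Tifab lay 1 bp from a CD region and that near Prkab2 1 bp from a DMSO region. In all, 32 unmarked distal peaks lay within 10 bp of an H3K27ac region and 307 within 100 bp, and 85 marked distal peaks overlapped one by 10 bp or less.

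The unmarked distal peaks resembled the marked ones in their share inside genes and their spread over chromosomes, but lay farther from gene ends by median. Inside a protein-coding gene lay 3671 of them (53.1%, 51.9 to 54.3), against 52.0% (50.5 to 53.4) of marked distal peaks. Their median distance to the nearest gene end was 21156 bp, against 18969 bp for marked ones. By chromosome, the unmarked share of distal peaks ran between 56.0% on chromosome 16 and 64.9% on chromosome X among the autosomes and X, and was 7 of 9 peaks on Y. By distance from a gene end, median fold was lowest nearby and highest far away. It was 8.47 in replicate 1 and 11.8 in replicate 2 at 1 to 2 kb from a gene end (n = 463), and 12.3 and 17.3 beyond 500 kb (n = 82). Peaks inside genes had median folds of 9.41 and 13.2, and peaks outside 10.0 and 13.8.

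At the authors' lenient H3K27ac threshold, called regions were near most unmarked distal peaks. The nearest region of either list lay a median of 1661 bp from the peak, within 1 kb at 2443 peaks (35.3%), within 10 kb at 93.0% and within 50 kb at 98.9%. The nearest CD region lay at a median of 3132.5 bp (3010 to 3217) and the nearest DMSO region at 3655 bp (3528 to 3802). Nearness of this kind was not particular to the unmarked class. Peaks marked in CD only had a DMSO region at a median of 3001 bp. It lay within 10 kb at 82.9% of them, against 77.7% of unmarked distal peaks. The nearness to be had from the number of regions alone was not computed. With only H3K27ac regions of −log10 q of 2 or more, the median distances of unmarked distal peaks were 29494 bp to CD and 29499 bp to DMSO. Both the nearness and the gap between the conditions thus rest on the weaker calls. By the CD list alone the order turned round, with 2989 bp to CD and 2064 bp to DMSO, since peaks under a DMSO region then count as unmarked. The CD list holds more regions than the DMSO list, and the part of this in the difference was not tested. Within 10 kb, 3415 unmarked distal peaks (49.4%) had more CD than DMSO bases under H3K27ac, 3000 (43.4%) had more DMSO bases and 501 (7.24%) had equal numbers, 499 of these with none. The mean was 641 CD bases and 614 DMSO bases per peak, but per Mb of the whole list it was 17.2 in CD and 19.7 in DMSO, so the direction turns with the scaling to list size. With the stricter H3K27ac regions, 10059 peaks counted as unmarked and 17.6% of these had more CD bases. The median distances of 29494 and 29499 bp exceed 10 kb, so most of these peaks had no CD base, and most no DMSO base, to compare. The shares with more DMSO bases or equal numbers were not computed there, so the 17.6% shows no shift towards DMSO.

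Median fold was lowest near H3K27ac and highest far from it. Peaks within 1 kb of a region had median folds of 9.30 in replicate 1 and 13.2 in replicate 2 (n = 2443). They were 9.59 and 13.5 at 1 to 2 kb (n = 1423) and 9.63 and 13.3 at 2 to 5 kb (n = 1761). Peaks at 5 to 10 kb had 10.1 and 14.4 (n = 802), peaks at 10 to 50 kb 11.4 and 14.8 (n = 414), and the 73 peaks beyond 50 kb 13.0 and 16.3. Among those 73, 20.5% lay inside a protein-coding gene, so the remote peaks lay mainly between genes. Call strength did not rise in step with fold. Median −log10 q was 25.5 in replicate 1 and 33.7 in replicate 2 within 1 kb. It was 24.0 and 29.5 at 10 to 50 kb, and 28.4 and 35.2 beyond 50 kb. The 3 farthest lay near Gm20812 and Gm21241 on chromosome Y and Vmn2r121 on chromosome X. The Vmn2r121 peak, near a vomeronasal receptor gene, had folds of 19.6 and 28.9 and lay 1632047 bp from the nearest CD region and 1760244 bp from the nearest DMSO region.

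**Figure D3:**
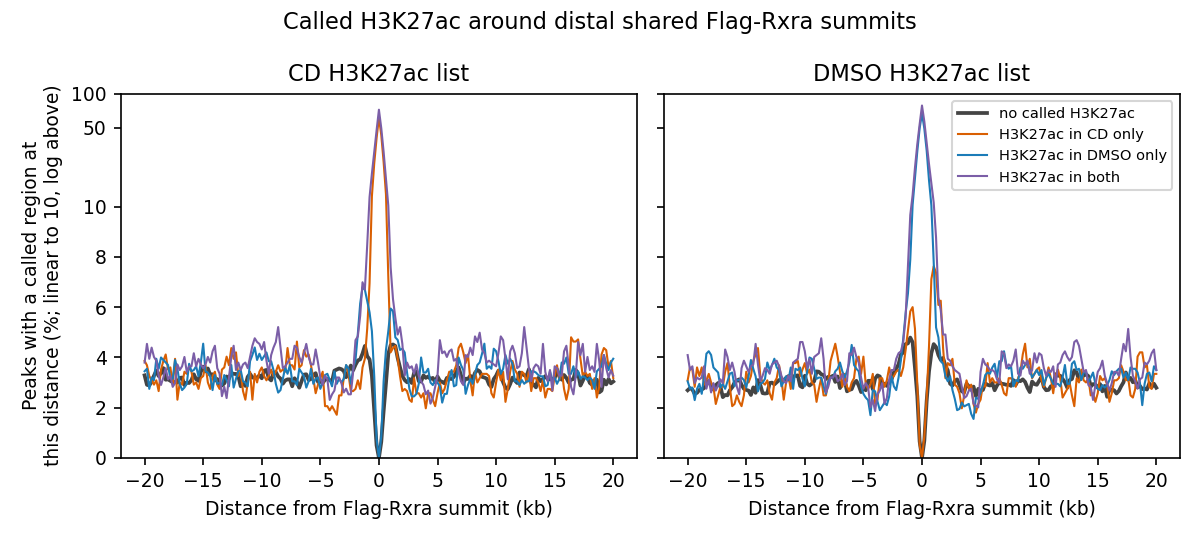
Share of distal shared Flag-Rxra peaks with a called H3K27ac base (vertical axis, percent) by distance from the peak summit (horizontal axis), with a panel for the CD and the DMSO list and a line for each H3K27ac class; the vertical axis is linear to 10% and logarithmic above. The dip at the centre of the unmarked class is set by the rule that chose it. At 0.4 to 1 kb from the summit an average of 3.803% of unmarked distal peaks had a base under a CD region and 4.18% under a DMSO region, and at 10 to 20 kb 3.14% and 2.91%.

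Most unmarked distal peaks had no other unmarked distal peak within 10 kb. Another lay within 10 kb of 1352 of them (19.5%), and the median distance to the nearest other was 44528 bp. No value for an even spread or for marked peaks was computed, so whether this spacing is close or wide was not tested. The share depends on the rule, from 10.8% with no H3K27ac region within 2 kb to 37.2% in replicate 2 alone. Joined at 10 kb, the unmarked distal peaks formed 6187 groups, of which 5564 held 1 peak, 538 held 2, 70 held 3 and 15 held 4 or more. The largest group held 6 peaks within Vps13d, a gene for a lipid-transfer protein, at chr4:144960399-144984501. Its folds ran between 4.76 and 8.53 in replicate 1 and between 5.22 and 18.7 in replicate 2, below the class median in replicate 1 throughout. A group of 5 lay near Pim1, a kinase gene, at chr17:29451050-29467696, with folds of 5.09 to 6.81 and 7.14 to 21.9. The group near Pim1 was chosen for naming after its values were seen.

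Of 21887 protein-coding genes, 2474 (11.3%) held the summit of an unmarked distal peak, and 3789 (17.3%) were linked to one, that is, held a summit or had one within 10 kb of an end. Genes with such a peak were longer. Length is tied to the rule, since a longer gene has more bases over 1 kb from its ends that can hold a summit. Median length was 67392 bp for genes with such a peak inside and 14622 bp for genes without, and 17169 bp for all. A single peak was found in 1782 genes and 2 in 421. Vps13d held 15, Cmss1 and Stard13 11 each, Msi2 10, and Filip1l, Gse1 and Exoc6b 9 each. These genes are 219528 bp or longer. The 4 in Dhrs3 also count in Vps13d, and the 9 in Filip1l also count in Cmss1, since these genes overlap. Smad3, Nxn and Ppm1h, with 8 each, were joined by Maml2, Rad51b and Rbms3, and Smad3 was the shortest of the 6 at 111229 bp.

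A larger share of genes with an unmarked distal peak inside had called peaks at their ends. A Flag-Rxra peak lay within 1 kb of an end in 36.6% of them, against 31.0% of genes without one, a CD H3K27ac region in 44.7% against 37.5%, and a DMSO region in 41.0% against 35.2%. For genes of over 200 kb the shares were 31.5% against 17.4% for Flag-Rxra, 38.3% against 26.0% for CD H3K27ac and 34.9% against 20.1% for DMSO H3K27ac. The Flag-Rxra share was 37.9% against 28.0% for genes up to 20 kb, 36.9% against 37.3% for those of 20 to 50 kb, 39.6% against 38.0% for those of 50 to 100 kb and 36.6% against 29.7% for those of 100 to 200 kb. The intervals of both shares overlapped in the 3 ranges from 20 to 200 kb.

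Nuclear receptor genes had the largest linked share of the 19 gene lists. Of 29 nuclear receptor genes, 18 (62.1%) were linked to an unmarked distal peak, beside 17.3% of all protein-coding genes, and the median length of the list was 47143 bp. Among genes of over 20 kb up to 200 kb, 7 of 17 held a peak inside, beside 18.1% of all genes of that length. The receptor lists were written with earlier results known, so this is a description of the list and not a test of it. Rarb, the retinoic acid receptor β gene and itself a retinoic acid target, held 7 peaks. The highest, at chr14:16603194-16604030, had folds of 16.8 in replicate 1 and 31.0 in replicate 2 and lay 1028 bp from a CD region and 545 bp from a DMSO region. The 7 ranged between 4.83 and 16.8 in replicate 1 and between 7.38 and 31.0 in replicate 2. A second, at chr14:16485134-16485478, had folds of 11.1 and 24.0 and lay 4365 bp from a CD region and 3379 bp from a DMSO region. Neither end of Rarb carried a Flag-Rxra peak or a CD region, and a DMSO region lay at an end.

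Rxra itself held 1 unmarked distal peak, at chr2:27739955-27740727, with folds of 13.7 and 16.6 and identical summits in both replicates. The cells overexpressed Rxra, and whether this signal came from the gene or from the introduced copy was not tested. The Rxra peak lay 159 bp from a CD region and 679 bp from a DMSO region. Rarg held 1 (10.5 and 17.7) with −log10 q of 249 and 309. Rara, the retinoic acid receptor α gene, had 3 linked peaks, of 6.99 and 10.9, 3.82 and 7.40, and 8.50 and 9.22. The highest-ranked receptor peak lay in Nr6a1, the gene of germ cell nuclear factor, with folds of 26.4 and 25.9, and lay 19421 bp from a CD and 35571 bp from a DMSO region. Among partner receptors, Pparg held 2 peaks (11.7 and 14.8, and 13.2 and 8.95), Thra 2 (7.79 and 15.3, and 9.43 and 25.8), Nr1h3, the LXRα gene, 1 (7.42 and 7.02), and Vdr was linked to 1 outside it (7.94 and 19.99). The second Thra peak is also linked to Nr1d1, the neighbour that overlaps Thra. Rxrb and Rxrg, the other RXR genes, were linked to none, though Rxrb had a shared Flag-Rxra peak within 1 kb of an end.

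Of 25 genes known as targets of RXR heterodimers, 12 (48.0%) were linked, beside 17.3% of all protein-coding genes. Among those of over 20 kb up to 200 kb, 8 of 15 held a peak inside, beside 18.1% of all genes of that length. On the retinoic acid side, Dhrs3, a retinaldehyde reductase gene, held 4 peaks. Their folds were 6.33 and 12.2, 4.11 and 6.48, 7.49 and 9.29, and 4.46 and 14.6 in replicates 1 and 2, each lower in replicate 1. Cyp26b1, for an enzyme that degrades retinoic acid, was linked to 3, the best of them outside the gene with folds of 22.6 and 13.7. It was higher in replicate 1 than in replicate 2. Its relative Cyp26a1 was linked to 1 (4.06 and 8.26). Stra6, the retinol transporter gene, held 3 (5.56 and 7.20, 5.59 and 9.43, and 10.3 and 15.4), and Tgm2 2 (5.90 and 10.7, and 6.10 and 15.2).

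Sterol and lipid targets followed. Srebf1, which encodes a transcription factor for lipid synthesis, held 1 peak (11.8 and 21.6), the LXR target Abcg1, a sterol exporter, 2 (9.26 and 8.43, and 10.0 and 15.5), Cpt1a 2 and Angptl4 1. Abca1, Lpcat3 and 11 other genes of the list were linked to none. Both Abca1 and Lpcat3 had a shared Flag-Rxra peak within 1 kb of an end. Apart from the best-ranked peak of Srebf1, Cyp26b1, Nr6a1 and Rxra and the first 2 of Rarb, the peaks of these genes and of the receptors were named after their values were seen.

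**Figure D4:**
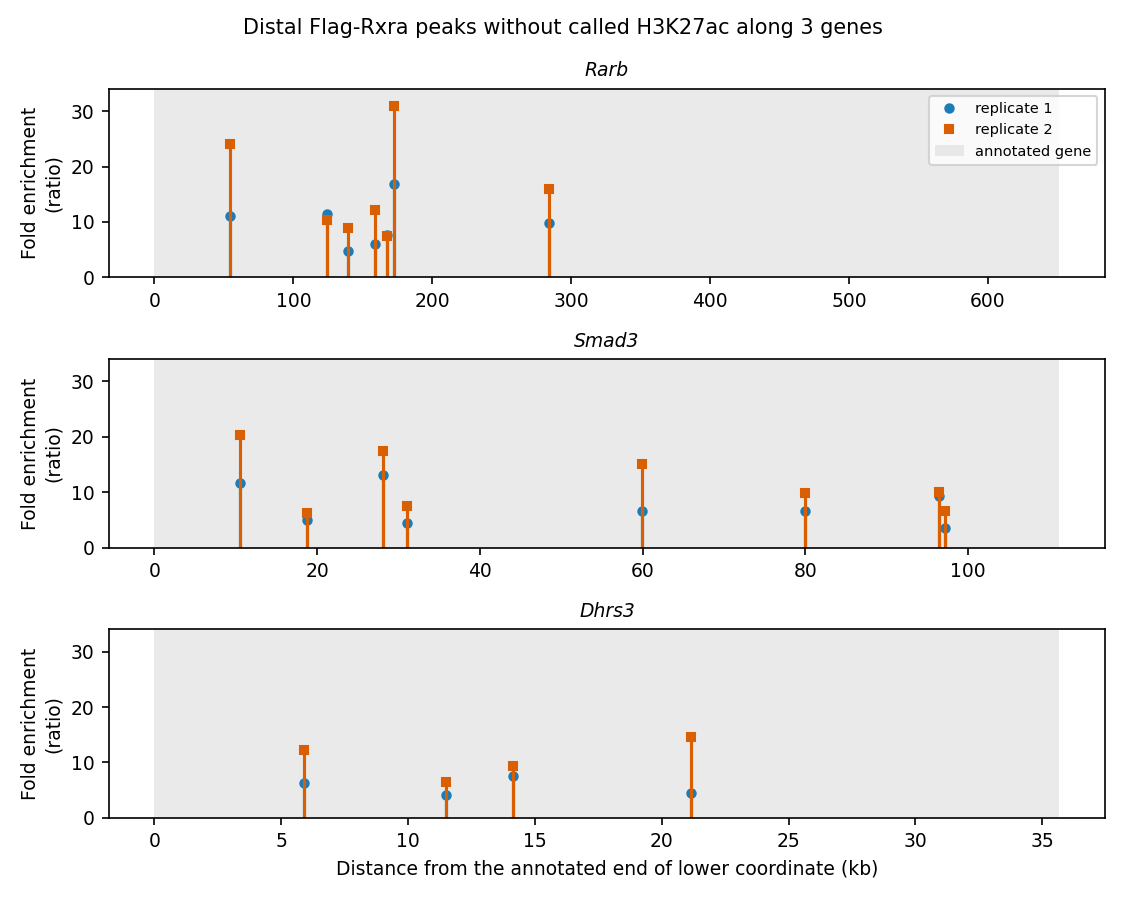
Unmarked distal peaks along Rarb, Smad3 and Dhrs3, by distance from the annotated end of lower coordinate (horizontal axis, kb), with the fold enrichment (vertical axis, ratio) of replicate 1 as circles and replicate 2 as squares at the same position. Rarb holds 7 peaks, Smad3 8 and Dhrs3 4, and the tallest is the Rarb peak of 16.8 and 31.0.

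Of 26 genes for TGF-β ligands, receptors and SMAD proteins, 11 (42.3%) were linked, beside 17.3% of all protein-coding genes. Smad3, which carries TGF-β signals to the nucleus, held 8 peaks with replicate 1 folds of 3.57 to 13.0 and replicate 2 folds of 6.24 to 20.4. Each had an H3K27ac region within 45 to 1855 bp. The best-ranked peaks of this list lay at Ltbp2 (15.4 and 22.1) and Ltbp1 (14.9 and 21.9), for proteins that hold latent TGF-β in the matrix, and at Ski (12.6 and 24.5), a SMAD corepressor. Smad7, an inhibitory SMAD, was linked to 4, and Smad6 to 3. Of 25 Wnt and Hippo genes, 12 (48.0%) were linked, among them the coreceptor gene Lrp6 (13.8 and 26.7), Axin1 (11.4 and 21.4) and Wwtr1, the TAZ gene (9.81 and 19.05).

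Of 24 fibroblast matrix and adhesion genes, 14 (58.3%) were linked, beside 17.3% of all protein-coding genes. Among those of over 20 kb up to 200 kb, 6 of 18 held a peak inside (33.3%, 13.3 to 59.0). This interval took in the 18.1% of all genes of that length. Col1a2, Fn1 and Vcan were among the genes linked to none. The peak of Sparc, for a matrix glycoprotein, had folds of 13.9 and 25.7 and lay 71 bp from a CD and 556 bp from a DMSO region. Col12a1 held one of 13.0 and 20.6, and one of 8.93 and 19.6 lay 7315 bp outside Col1a1. Of 24 actin cytoskeleton genes, 11 (45.8%) were linked, in a list whose median length was 121282 bp. Arhgap24, a Rac-directed GTPase activator, held a peak of 20.3 and 32.9, 7658 bp from a CD and 1935 bp from a DMSO region. Lpp held one of 17.7 and 19.5.

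Of 21 AP-1 and somatic transcription factor genes, 9 (42.9%) were linked, beside 17.3% of all protein-coding genes. Runx1 held a peak of 14.6 and 26.8, 192 bp from a DMSO region, Tead1 one of 12.1 and 21.3, and Fosb was linked to one of 14.9 and 18.2, 138 bp from a CD region. Of 20 mesenchymal factor and surface marker genes, 5 (25%) were linked: Twist2, Pdgfra, Tbx15, Foxp1 and Pdgfrb. The best-ranked peaks were those of Twist2 (18.5 and 20.5), a factor of mesenchymal identity, and Pdgfra (10.0 and 18.8), the latter 9970 bp outside the gene. Most genes of the list were linked to none, among them Twist1, Prrx1, Snai1, Snai2, Zeb1, Zeb2, Thy1 and Vim. Of 19 coregulator genes, 7 (36.8%) were linked, with Ppargc1a (13.4 and 24.9) and Ppargc1b (12.2 and 26.99), PPAR coactivators, ranked first.

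The exosome, retroelement, inflammation, interferon and pluripotency lists had linked shares of 8% to 28.0%, beside 17.3% of all protein-coding genes. Of 25 genes for the RNA exosome and its cofactors, 2 (8%) were linked, Zcchc8, of a nuclear complex that feeds RNA to the exosome (15.6 and 29.4), and Tent4a, a non-canonical poly(A) polymerase gene (14.4 and 25.5). None of Exosc1 to Exosc10 was among them. Shared Flag-Rxra peaks near gene ends, which the rule leaves out, lay at 17 of the 25 genes. These included Exosc1 to Exosc10 apart from Exosc3 and Exosc6. Of 25 retroelement silencing genes, 7 (28.0%) were linked, including Dnmt1 (13.2 and 17.0), the maintenance DNA methyltransferase, Setdb1 (11.7 and 16.9), a histone H3 lysine 9 methyltransferase, and Zfp809 (9.80 and 19.4), which recognises proviral DNA. Of 26 NF-κB and inflammation genes, 5 (19.2%) were linked, led by the chemokine gene Ccl2 (9.18 and 23.8), 7 bp from a DMSO region, and Il1r1 (9.68 and 18.9). Of 23 matched interferon and nucleic acid sensing genes, 5 (21.7%) were linked, among them Ifnar2 (10.1 and 17.5). Of 24 pluripotency genes, 4 (16.7%) were linked, Nr5a2 (8.12 and 18.5), Tdgf1 (9.43 and 13.7), Esrrb (10.6 and 10.5) and Nanog (8.25 and 6.43).

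Marker genes of other cell types gave a scale for these shares. Linked were 5 of 12 neural, 3 of 10 endothelial, 3 of 12 keratinocyte and epithelial, 1 of 10 macrophage and 0 of 9 muscle markers. Among the neural ones was Dcx (12.6 and 7.07). The intervals of these 5 marker lists took in the 17.3% of all genes, as did those of the coregulator, mesenchymal, exosome, retroelement, inflammation, interferon and pluripotency lists. The median length of the lists differed widely, from 5594 bp for muscle markers to 121282 bp for actin cytoskeleton genes, and the part of length in these shares was not tested beyond the range of 20 to 200 kb.

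**Figure D5:**
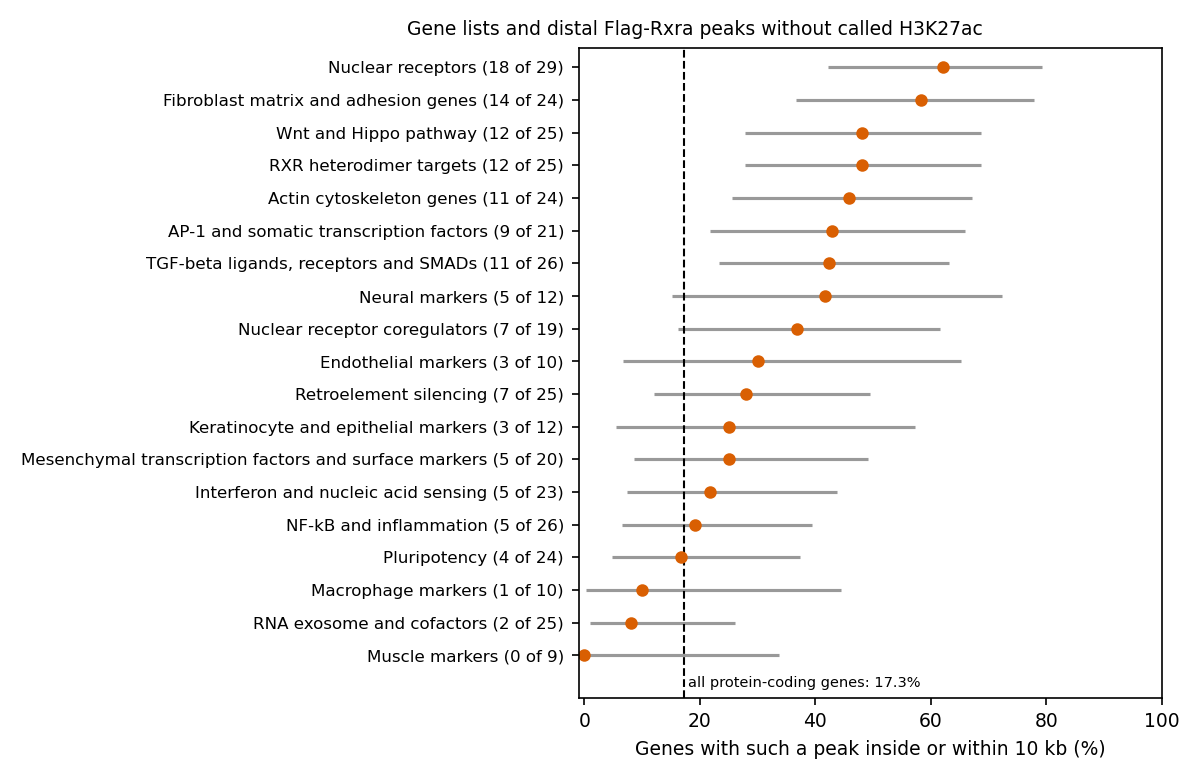
Share of the genes of each list linked to an unmarked distal peak (horizontal axis, percent), as points with 95% exact binomial intervals, which cover counting error only. The dashed line is the share of all protein-coding genes, 17.3%. Nuclear receptors have the largest share, 18 of 29, and muscle markers none of 9.

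Non-coding genes were touched by a minority. Long non-coding RNA genes were overlapped by 957 unmarked distal peaks (13.8%), against 685 marked ones (15.2%). Small nuclear RNA genes, by the RefSeq class, were overlapped by 6, against 27 marked distal peaks, the best-ranked at Rnu3a (16.5 and 26.5), a gene of the U3 RNA. Transfer RNA genes were overlapped by 19 unmarked (0.275%) and 19 marked distal peaks (0.421%). The best-ranked of these lay at the asparagine tRNA gene n-TNgtt14 (18.5 and 21.3), the glutamine tRNA gene n-TQttg6 (11.1 and 26.0) and the proline tRNA gene n-TPagg6 (9.84 and 16.0). A single peak overlapped a microRNA gene, Mir145a (8.999 and 6.43), and a single one a snoRNA gene, Snord104 (9.43 and 13.5).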

How the data were processed

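CUT&Tag peak lists were used as deposited. Per the submitters' processing notes, the build was mm10 and the tools were MACS2 2.1.2, Bowtie2 2.2.5, deepTools 3.4.3 and fastp 0.20.1. The fold enrichment (ratio) and −log10 q of each peak are the authors' deposited values. H3K27ac lists are of the broad type with a lowest −log10 q of 1.00, Flag-Rxra lists of the narrow type with 5.00, so the leniency of the H3K27ac calls bears on who counts as unmarked. How the H3K27ac replicates were combined, and whether a control library was used, are not given in the sources used here. The lists hold no counts, so depth is unknown.

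Overlaps, distances and shares were computed with pandas 2.3.3, scipy 1.17.1 and numpy 2.4.6 under Python 3.11.15, and plots with matplotlib 3.10.9, after tests on simulated data. Genes and start sequences came from RefSeq GRCm38.p6, whose gene table gives no strand or exons, so peaks inside genes were not divided into exonic and intronic. Of 391 genes in 19 lists, 389 matched. Intervals are 95% Clopper-Pearson or order-statistic and cover counting error only. No test was made, since regions of 1 list are not replicates and each H3K27ac condition has 1 list. Peaks, lists and alternatives were chosen with earlier results of these data known. Peaks were named by rule: the 12 best mean fold ranks, the 10 genes with most peaks inside, up to 4 best-ranked peaks per gene list, the 3 nearest either side of each limit, and peaks at small RNA genes. Some items are not reported here. Others were named after their values were seen. Windows on chromosome 18 are not printed. The motif search was planned for peak sequences and was run on RefSeq start windows instead.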

Additional observations from a re-analysis of the deposited data

Results flagged for a closer look

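Outside chromosomes 1 to 19, X and Y, 5 shared Flag-Rxra peaks overlapped no H3K27ac region, 1 in mitochondrial DNA and 4 on contigs. They are noted because they lie in data that none of the comparisons used.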

How the results depend on the processing

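No paired analysis was possible because the H3K27ac conditions have 1 list each and the values come from no test. The 66 values below moved by more than their interval, or for the number of peaks by more than 1.5 times, and the other 66 did not. The order of the distances to CD and DMSO regions turned round by the CD list only. Intervals here cover counting error over many peaks, so small shifts count as moved.

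Values follow in the order number of unmarked distal peaks, their share of distal peaks, share inside genes, median folds, median distances to H3K27ac, share with more CD bases within 10 kb, and share with another unmarked peak within 10 kb, where each moved. With a gene-end limit of 5 kb, the share inside genes was 51.4%, median folds 9.93 and 13.8, the DMSO distance 3822 bp and the share with a neighbour 18.5%. With the ends of all RefSeq gene types, 54.7% lay inside genes and 17.8% had a neighbour. Merging unmarked peaks within 1 kb left 17.5% with a neighbour. With replicate overlap of 50% of both peaks, 4525 remained, with folds of 10.0 and 14.2 and 15.0% with a neighbour. With a Flag-Rxra −log10 q of 10 or more, the share was 59.6%, folds 10.0 and 13.96 and the neighbour share 18.0%. With 20 or more, 3771 peaks gave 55.1%, 11.6 and 16.1, 3493 bp to DMSO and 13.2%.

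The H3K27ac calls decide which peaks are unmarked. With only H3K27ac regions of −log10 q of 2 or more, 88.0% of distal peaks were unmarked, with folds of 9.84 and 13.7, distances of 29494 bp to CD and 29499 bp to DMSO, 17.6% with more CD bases and 26.7% with a neighbour. With no region within 500 bp, the values were 48.5%, 3783 bp to CD, 4565 bp to DMSO and 15.7%. With none within 2 kb, 3050 peaks (26.7%) remained, 50.6% inside genes, with folds of 10.0 and 13.8, distances of 5971 and 7206 bp, 47.1% with more CD bases and 10.8% with a neighbour. By the CD list only, 78.0% were unmarked, with folds of 9.86 and 13.7, distances of 2989 bp to CD and 2064 bp to DMSO, 44.0% and 23.9%. By the DMSO list only, 70.7% were unmarked, with 2375 bp to CD, 52.6% with more CD bases and 21.9% with a neighbour.

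Leaving out each Flag-Rxra replicate in turn gave 13274 (without replicate 2) and 28194 peaks (without replicate 1). The unmarked share was then 67.0 and 77.1%, the CD distance 3423.5 and 3937 bp, the DMSO distance 4239.5 and 5147 bp, and the neighbour share 24.5 and 37.2%. Median fold was 8.44 in replicate 1 alone and 9.97 in replicate 2 alone, and 47.8% had more CD bases without replicate 1 (49.4% without replicate 2, not moved).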
